A study of Bos taurus with 6 samples.

Results

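The distal end of bovine chromosome 18, taken as every CpG from 60 Mb to the chromosome end on build UMD3.1 that was covered by 5 to 500 reads in all 6 libraries (CpGs 5-500), held 13364 of the 83614 CpGs 5-500 of the chromosome and of 1580644 in the genome. The first of them lay at position 60039817 and the last at 66003990, a span of 5.96 Mb. This chromosome end was chosen because it holds clusters of CpGs that are low in sperm and high in both somatic cell types, so the low sperm values below are a description and carry no test. DNA methylation was measured by reduced representation bisulfite sequencing (RRBS), in which DNA is cut by MspI at CCGG sites, fragments of a chosen size are bisulfite-converted and sequenced, and the share of unconverted cytosines at a CpG gives its methylation percentage.

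Each cell type was represented by 2 libraries, each from a different animal and all from Holstein cattle. Sperm came from commercial semen straws of bulls, monocytes were selected from the blood of cows with beads against CD14, and fibroblasts were grown from ear skin of cows and kept in culture over repeated passages, with no treatment named for any group. Sperm came from males and both somatic cell types from females, so that a difference between sperm and somatic cells cannot be told apart from one between the sexes, and the labels give no age, although the study's methods describe the fibroblast donors as adult heifers. Only fibroblasts were cultured, and monocyte libraries were amplified by 12 PCR cycles against 14 for the others. The methylation tables hold no gene expression, so the cell types could not be checked against marker genes.

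In mammals, CpG methylation is largely erased and laid down anew in the male germline, and most CpGs outside CpG islands are highly methylated in both mature sperm and somatic cells. CpG islands at promoters usually remain unmethylated in all of them. Loci that are unmethylated in sperm and methylated in somatic cells include repeats, germline gene promoters and germline imprints that are carried by the maternal allele, which are unmethylated in sperm and remain methylated on that allele alone in somatic tissues. The distal end of this chromosome is known for large families of genes that encode C2H2 zinc finger proteins, whose fingers follow one another in tandem with a repeat unit of 84 bp in the DNA, for the NLRP genes, for the killer cell immunoglobulin-like receptor (KIR) genes and for the imprinted gene PEG3. In the RefSeq gene list for another build, ARS-UCD2.0, 37 of the last 200 protein-coding genes of chromosome 18 had symbols beginning with ZNF, ZSCAN or ZFP and a number, against 62 of the 1032 before them, and a further 71 carried only a locus number. The same 200 included 5 NLRP genes, 5 KIR genes, and PEG3 next to USP29. The clusters below have UMD3.1 positions and were not assigned to genes, since positions cannot be carried from one build to the other here.

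The median coverage of the distal CpGs was 15 to 24 reads per library, close to the 15 to 25 reads in the rest of the chromosome, and their median spacing was 12 bp against 15 bp. No distal position was listed with more than 500 reads in any library, the highest coverage being 123 reads, whereas 352 listed values in the rest of the chromosome exceeded that limit. The CpGs 5-500 were 36.1% of the 37019 positions listed in at least 1 library. The last CpG below the border, at 59988471, was methylated at 9.52% and 8.11% in sperm, 100% in both monocyte libraries and 68.4% and 86.4% in fibroblasts, with 12 to 37 reads. The first one above it, at 60039817, was at 0% and 25% in sperm, 100% in both monocyte libraries and 70% and 42.9% in fibroblasts, with 5 to 10 reads. The border is a round position, and the CpG inside it was a DMC between monocytes and sperm but not between fibroblasts and sperm.

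The distal region was less methylated than the rest of the chromosome in every library, and by far the most in sperm. Sperm averaged 28.2% and 27.1% over the distal CpGs against 50.0% and 49.4% over the rest, a difference of -22.1 ± 0.394 points (SD, n = 2). Monocytes averaged 50.5% in both libraries against 54.2% and 53.9%, a difference of -3.57 ± 0.225 points (n = 2). Fibroblasts averaged 43.2% and 43.7% against 47.1% and 47.5%, a difference of -3.86 ± 0.0689 points (n = 2). The drop in sperm exceeded that in the 4 somatic libraries by 18.3 points. Monocytes and fibroblasts, whose contrast the choice of the region did not use, differed by 0.2996 points in this drop (p = 0.333 by an exact permutation of the libraries, two-sided, which is the minimum for 2 against 2), and the sign of this small difference turned when CpGs were weighted by their coverage or the border was set at 62 Mb.

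The lower mean in sperm came with fewer highly methylated CpGs. In sperm, 66.7% and 67.3% of the distal CpGs were below 20% methylation and 22.9% and 21.3% were above 80%, whereas 46.8% and 47.1% of the CpGs of the rest were below 20% and 47.5% and 46.7% above 80%. Monocytes had 45% and 44.8% of the distal CpGs above 80%, and fibroblasts 30.1% and 30.5%, close to the 49.5% and 48.9% and the 34.2% and 34.5% of the rest. Sperm CpGs of intermediate methylation, from 20% to 80%, were also more frequent in the distal region, at 10.3% and 11.4% against 5.70% and 6.17%. Taking the mean of each cell type, 5078 distal CpGs (38.0%) were below 20% in all 3 cell types, against 33.6% of the rest, and 1367 (10.2%) were above 80% in all, against 24.6%. CpGs below 20% in sperm and above 80% in both somatic cell types numbered 1590 (11.9%, against 3.93%), and the reverse pattern was found at 60 (0.449%, against 0.999%). A further 859 CpGs (6.43%, against 2.38%) were low in sperm, high in monocytes and intermediate in fibroblasts.

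**Figure D1:**
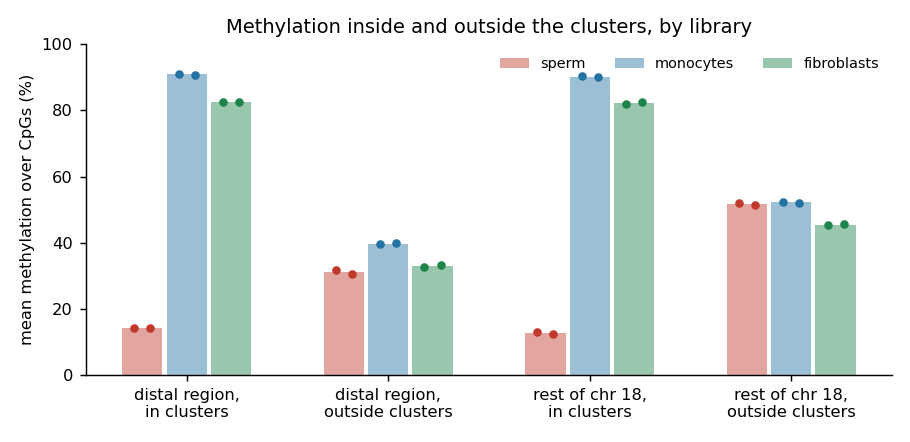
Mean methylation (%) over CpGs in each library, for CpGs inside and outside the clusters of sperm-specific hypo-DMCs, in the distal region and in the rest of chromosome 18; bars are the means of 2 libraries and points the libraries. Sperm stood at 14.4% in the distal clusters and at 31.2% outside them, while it averaged 51.6% outside clusters in the rest of the chromosome; the clusters were chosen for their low sperm values.

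Differentially methylated CpGs (DMCs) were called between pairs of cell types with a logistic regression on read counts summed per cell type, compared by its likelihood ratio, and needed an adjusted p below 0.01 over all CpGs 5-500 and a difference of at least 25 points. Between monocytes and sperm, 4753 distal CpGs (35.6%) were DMCs, against 18.8% of all CpGs 5-500 tested and 19.8% of those in the rest of the chromosome. Monocytes were higher at 4319 of them (32.3%; 13.3% of all CpGs tested) and lower at 434 (3.25%; 5.48% of all). Between fibroblasts and sperm, 5102 (38.2%) were DMCs, against 28.3% of all CpGs, with fibroblasts higher at 3937 (29.5%; 12.1% of all) and lower at 1165 (8.72%; 16.2% of all). The distal region thus departed from the genome in the direction of lower sperm methylation in both comparisons, which is the contrast it was chosen for. With the edgeR quasi-likelihood test, which takes account of the spread between animals, the monocyte comparison gave 3456 distal DMCs and the fibroblast comparison 3164. The shares over all CpGs with this test were not counted.

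Between monocytes and fibroblasts, 2107 distal CpGs were DMCs (15.8%, against 17% of all CpGs tested and 17.7% of the rest of the chromosome). Monocytes were higher at 1731 (13.0%; 13.7% of all) and lower at 376 (2.81%; 3.3% of all). This contrast was not used to choose the region, and with the main test its share of DMCs stayed near the genome-wide share in both directions. Shares over all CpGs were not counted for the alternatives that follow. The count was 409 with the edgeR quasi-likelihood test and 1334 without monocyte replicate 1. Between the 2 animals of 1 cell type, the same criteria called 58 distal CpGs in sperm (0.434%, against 0.309% of all CpGs tested), 8 in monocytes (0.0599%, against 0.173%) and 108 in fibroblasts (0.808%, against 0.693%).

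Sperm-specific hypo-DMCs, defined as DMCs between sperm and both somatic cell types, lower in sperm and no DMC between monocytes and fibroblasts, numbered 3148 in the distal region (23.6%, against 8.98% of all CpGs 5-500 and 8.70% of the rest of the chromosome). Sperm-specific hyper-DMCs, the reverse, numbered 181 (1.35%, against 2.43% and 2.85%). In windows of 1 Mb with at least 300 CpGs, the 5 distal windows held from 15.0% to 29.9% hypo-DMCs with a median of 21.9%, and the 46 windows of the rest held from 1.22% to 22% with a median of 7.02%. The ranges overlapped, since the highest window of the rest, toward the opposite end of the chromosome, was above 3 of the 5 distal windows. Windows just below the border were mostly raised as well. Those starting at 55, 56 and 57 Mb held 19.4%, 15.1% and 18.2%, and that at 59 Mb held 20.04%. The window at 58 Mb was lower, at 9.92%. The higher share was thus not confined to the distal side of the border. Windows with fewer CpGs varied more, the 2 distal ones being at 28.6% and 60% and the 14 of the rest between 0% and 63.4%.

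**Figure D2:**
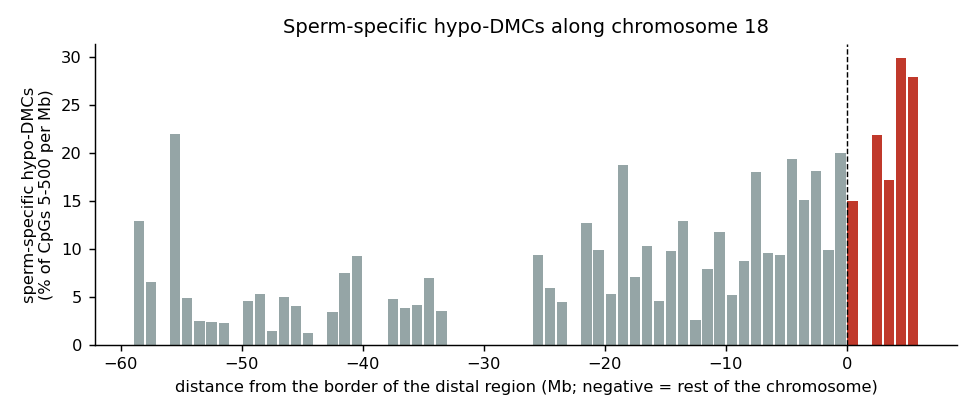
Share of CpGs 5-500 that were sperm-specific hypo-DMCs (%) in windows of 1 Mb, by distance in Mb from the border of the distal region; windows with fewer than 300 CpGs are left out on both sides of the border. The 5 distal windows, in red, range from 15.0% to 29.9%, and the 46 of the rest, in grey, from 1.22% to 22%.

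Most hypo-DMCs of the distal region lay close to others. CpGs read by RRBS lie close together on MspI fragments, and the grouping of all CpGs 5-500 was not measured beside it. Runs of hypo-DMCs in which neighbours lay at most 1000 bp apart were formed along the chromosome, and a run of at least 20 hypo-DMCs was called a cluster. The distal region had 211 runs, of which 40 were single CpGs, 127 held 2 to 19 hypo-DMCs and 44 were clusters. The clusters held 2300 hypo-DMCs, 73.1% of those of the region, and covered 2819 CpGs 5-500, 21.1% of its members. In the rest of the chromosome there were 86 clusters, with 2884 hypo-DMCs (47.2%) and 4.90% of the CpGs. Distal clusters thus came at 7.33 per Mb and 3.29 per 1000 CpGs, against 1.43 and 1.22 in the rest. A higher share of hypo-DMCs by itself makes long runs more frequent, and its part in these differences was not tested.

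Distal clusters measured from 316 to 5763 bp with a median of 1489.5 bp, against a median of 776.5 bp in the rest of the chromosome, and had a median of 38 hypo-DMCs against 27. Neighbouring clusters were separated by 1166 to 1223216 bp with a median of 25076 bp, and 15 of the 43 gaps were under 10000 bp. They gathered in a few stretches, with 7 clusters and 406 hypo-DMCs in the 100 kb from 62300000, 4 clusters in the next 100 kb, 4 in the 100 kb from 64200000, and 7 clusters with 368 hypo-DMCs in the 100 kb from 65900000, next to the chromosome end. The first 1 Mb of the region held no cluster, and the first cluster started at 61091405.

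Inside the distal clusters, sperm averaged 14.4 ± 0.0246%, monocytes 90.8 ± 0.186% and fibroblasts 82.4 ± 0.0226% (SD, n = 2 libraries each). Distal CpGs outside the clusters were at 31.2 ± 1.03% for sperm, 39.8 ± 0.0828% for monocytes and 33.0 ± 0.457% for fibroblasts. The CpGs outside the clusters were therefore still lower in sperm than the 51.6% found outside clusters in the rest of the chromosome, and there somatic cells were low as well, at 39.8% and 33.0% against 52.2% and 45.5%. The contrast faded within a short distance of the cluster borders. Over the 163 CpGs within 500 bp of a cluster border, sperm averaged 30.2%, monocytes 56.1% and fibroblasts 41.9%, and over the 211 CpGs more than 500 and up to 1000 bp away the 3 cell types were at 34.9%, 39.4% and 35.1%. No hypo-DMC can lie within 1000 bp outside a cluster, so that this step follows in part from how clusters were drawn, but beyond 1000 and up to 2000 bp, where hypo-DMCs may occur, the means were again 29.4%, 36.3% and 30.2%.

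The levels in sperm varied widely among the 44 clusters. The mean of the 2 sperm libraries ranged from 0.156% to 62.4% with a median of 7.56%, being under 5% in 19 clusters, from 10% to 20% in 8 and at least 20% in 12. Monocytes ranged from 43.2% to 98.2% with a median of 94.8%, and fibroblasts from 39.3% to 97.0% with a median of 85.3%. The clusters in the rest of the chromosome had similar medians in sperm, at 6.53%. The 12 clusters named next are the 10 with the most hypo-DMCs and those tied with the last of these.

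The first kind of cluster was almost free of methylation in sperm and almost fully methylated in somatic cells. In chr18:62377846-62380903, 154 of 158 CpGs were hypo-DMCs, and the cluster mean was 1.56% and 2.56% in sperm, with monocytes at 96.9% and 97.2% and fibroblasts at 95.1% and 94.4%. Sperm was flat along its 3058 bp, since blocks of 500 bp ranged from 0.0% to 4.4% in either bull, and the most methylated CpG in sperm, at 62379750, was at 13.3% and 10%. At 62378497, none of the 18 and 20 sperm reads was methylated whereas all of the 16, 13, 17 and 20 somatic reads were. In chr18:62407127-62408509, 94 of 99 CpGs were hypo-DMCs, sperm being at 0.833% and 1.53%, monocytes at 95.6% and 97.8% and fibroblasts at 90.4% and 91.9%. The sperm and somatic libraries did not come near one another in either cluster.

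Other clusters with unmethylated sperm were less methylated in fibroblasts than in monocytes. In chr18:63621589-63623321, with 73 hypo-DMCs among 88 CpGs, sperm was at 2.07% and 1.36%, monocytes at 94.9% and 94.1% and fibroblasts at 75.9% and 79.0%, and 15 of the CpGs were DMCs between the somatic cell types. In chr18:62474953-62478718, with 75 hypo-DMCs among 96 CpGs, sperm was at 4.48% and 4.51%, monocytes at 90.8% and 91.0% and fibroblasts at 83.4% and 83.6%. The lower fibroblast mean of this cluster lay mostly at its start, where the first 19 CpGs averaged 65.4% and 60.7% in fibroblasts and 89.1% and 91.7% in monocytes.

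The cluster with the most hypo-DMCs, chr18:63687591-63692328, held 160 among 204 CpGs and was not uniform. Its mean was 9.79% and 10.2% in sperm, while monocytes were at 94.8% and 94.9% and fibroblasts at 78.0% and 80.7%. Sperm was at 9.1% and 12.4% in the first 500 bp, fell to 0.4% and 1.2% in the 500 bp from 63689591, and was at 61.3% and 26.2% over the 12 CpGs of the last block, from 63692091. The most methylated CpG in sperm, at 63692239, was at 72.2% and 55.2% with 18 and 29 reads. Fibroblasts varied as well, from 59.0% and 56.1% over the first 40 CpGs to 84.3% and 89.7% over the middle 124, and 41 CpGs were DMCs between monocytes and fibroblasts.

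A second kind of cluster was low but not unmethylated in sperm and held many CpGs of intermediate level. In chr18:64076675-64079768, with 128 hypo-DMCs among 144 CpGs, sperm was at 23.9% and 23.0%, monocytes at 98% and 97.7% and fibroblasts at 94.6% and 94.7%. Sperm was at 17.9% and 23.3% over its first 28 CpGs, at 11.4% and 17.2% over the middle 88, and at 69.0% and 41.0% over the last 28. In chr18:64014174-64015861, with 105 hypo-DMCs among 137 CpGs, sperm was at 17.9% and 21.7%, monocytes at 98.3% and 97.6% and fibroblasts at 82.9% and 81.8%. In chr18:65902047-65903340, with 101 hypo-DMCs among 104 CpGs, sperm was at 21.4% and 23.9%, monocytes at 98.2% in both libraries and fibroblasts at 95.3% and 95.05%. In the last of these clusters, single CpGs differed by more than the cluster means of the 2 bulls. Sperm was at 64% and 68.8% at position 65902178 and at 0% and 4.17% at 65902256. Of the 104 CpGs of this cluster, 54 were between 20% and 80% in sperm. In chr18:64076675-64079768 the bulls were at 83.4% and 44.8% in the 500 bp from 64079175, although their cluster means were close.

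The remaining named clusters with high somatic methylation followed the same lines. In chr18:65797542-65798676, with 75 hypo-DMCs among 76 CpGs, sperm was at 12.8% and 18.3%, monocytes at 98.6% and 97.9% and fibroblasts at 97.4% and 96.5%. In chr18:65971185-65972806, with 73 among 83, sperm was at 9.16% and 9.59%, monocytes at 97.5% and 96.9% and fibroblasts at 85.6% and 86.7%. The longest cluster of the region, chr18:62315793-62321555, had 88 hypo-DMCs among 120 CpGs, and sperm was at 39.9% and 41.2%, monocytes at 95.5% and 95.2% and fibroblasts at 91.2% and 88.0%. Sperm was not low throughout this cluster. Both bulls went from 25.9% and 30.9% over its first 24 CpGs and 32.5% and 31.7% over the middle 72 to 76.4% and 80.1% over the last 24, while the somatic libraries remained between 86.5% and 98.1% in all 3 stretches.

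**Figure D3:**
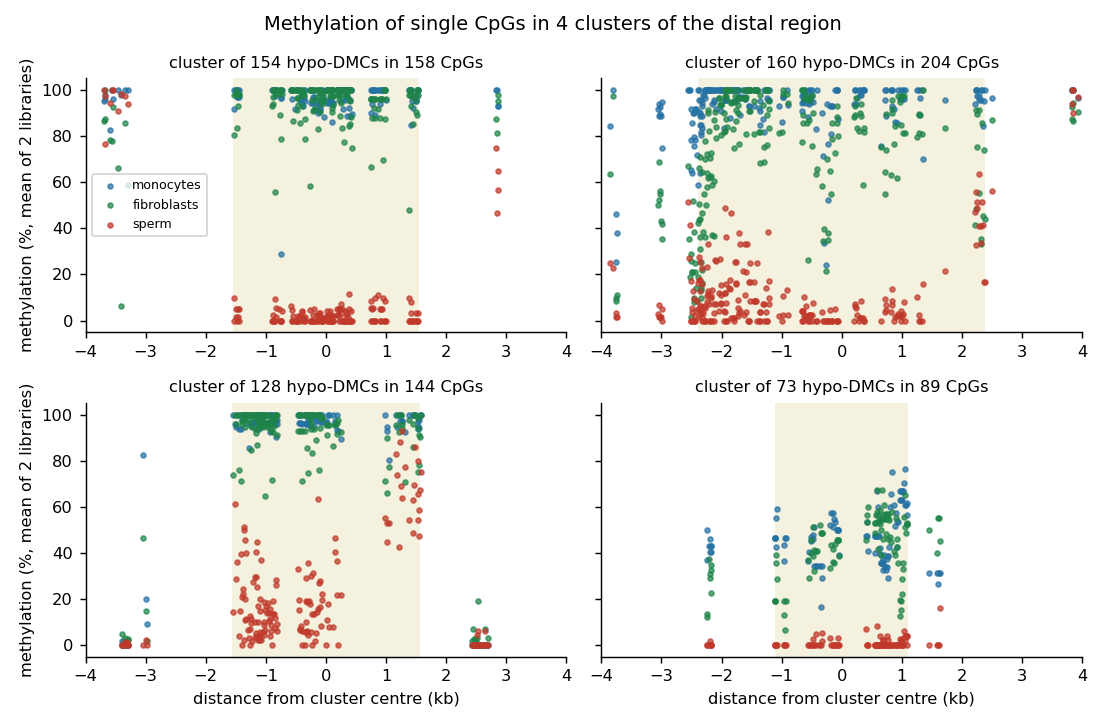
Methylation (%, mean of 2 libraries) of single CpGs within 4 kb of the centre of 4 clusters of the distal region, in sperm (red), monocytes (blue) and fibroblasts (green); the shaded area spans the cluster and the horizontal axis gives the distance from its centre in kb. Sperm is near 0 throughout the cluster of 154 hypo-DMCs, varies along those of 160 and 128, and is near 0 in the cluster of 73, where both somatic cell types are at intermediate levels.

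In 1 of the 12 named clusters the somatic cells were not highly methylated. In chr18:64289799-64291981, with 73 hypo-DMCs among 89 CpGs, sperm was at 0.777% and 1.07%, monocytes at 48.6% and 47.9% and fibroblasts at 51.8% and 37.4%. The mean of the 4 somatic libraries lay between 20% and 80% at all 89 CpGs, with quartiles of 42.6% and 50.5%, and both bulls had no methylated read at 67 of them. The somatic level of the cluster was thus not an average of CpGs with high and low somatic means. Single libraries varied more, for example from 33.3% to 81.8% at 64291474, with 7 to 15 somatic reads per library. A second cluster, chr18:64308034-64308640, chosen here after its values were seen, lay 16 kb further on and held 40 hypo-DMCs among 54 CpGs. Sperm was at 0.195% and 0.118%, monocytes at 38.8% and 47.6% and fibroblasts at 37.9% and 50.3%, and 49 of its CpGs had a somatic mean between 20% and 80%. Both bulls were without a methylated read at 48 of its 54 CpGs.

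The median share of CpGs with a somatic mean of 20% to 80% was 14.4% over the 44 clusters, and it exceeded 50% in 5, these 2 included. One of the others, chr18:62437353-62439124, was chosen after its values were seen and had such a mean at 60 of 67 CpGs. Sperm was at 2.28% and 2.82%, monocytes at 70.9% and 76.0% and fibroblasts at 48.0% and 44.1%. Clusters of this kind were not particular to the distal region, since both somatic means were under 60% in 3 of its clusters and in 5 of the 86 in the rest of the chromosome. Another distal cluster with both somatic means under 60%, chr18:62346252-62347892, also chosen after its values were seen, had only 20 hypo-DMCs among 35 CpGs and was less uniform. Sperm was at 3.16% and 3.53%, monocytes at 64.9% and 46.6% and fibroblasts at 31.5% and 47.2%, so that animals of the same cell type differed by over 15 points. Which parental allele carried the methylation was not measured in any of them.

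The spacing of CpGs inside the clusters was compared with the repeat unit of C2H2 zinc fingers, 84 bp. Counted as planned, the share of CpG pairs up to 1000 bp apart whose distance was within 2 bp of a multiple of 84 bp was 6.51% in the distal clusters, 6.58% in those of the rest of the chromosome, and 6.61% and 6.63% outside clusters, so that this measure showed no difference. Exact distances, a measure chosen after the data were seen, did. Pairs exactly 84 bp apart numbered 266 in the distal clusters, 1.84 times the mean of 144.9 over the other distances from 70 to 98 bp, and those exactly 168 bp apart numbered 220, or 1.88 times the mean of their neighbours. These were the most and second most frequent of all distances from 50 to 1000 bp. In the clusters of the rest, 84 bp had 192 pairs, 1.23 times its neighbours and rank 4 in frequency, and outside clusters the ratio was 0.988 in the distal region and 1.03 in the rest.

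**Figure D4:**
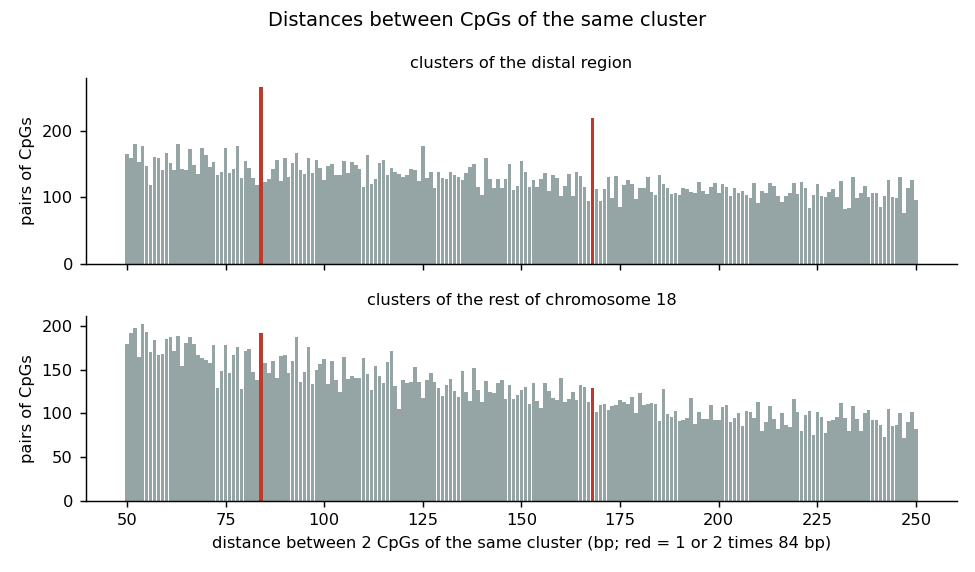
Number of pairs of CpGs 5-500 of the same cluster at each distance from 50 to 250 bp, in the clusters of the distal region (top) and of the rest of chromosome 18 (bottom), with 84 and 168 bp in red. In the distal clusters these distances have 266 and 220 pairs and stand above their neighbours; in the rest they have 192 and 129.

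The excess came mainly from 5 clusters, those with at least 10 pairs at 84 bp and a ratio of at least 2, which held 134 of the 266 pairs and had a joint ratio of 3.35. The other 39 had a joint ratio of 1.26, and no cluster of the rest of the chromosome met these limits, which were set after the data were seen. The limit on pairs favoured large clusters, since only 1 cluster of the rest had 10 pairs at 84 bp. With at least 5 pairs and the same ratio, 9 of the 44 distal clusters (20.5%) and 4 of the 86 in the rest (4.65%) qualified, with ratios of up to 5.38 and 7.37, so that the spacing was not particular to the distal region. The 5 clusters were all among the named ones, and were chr18:64014174-64015861 with 45 pairs where its neighbouring distances averaged 11.6, chr18:65902047-65903340 with 29 against 7.79, chr18:64076675-64079768 with 26 against 10.4, chr18:65971185-65972806 with 20 against 5.07 and chr18:65797542-65798676 with 14 against 5.25. Their sperm means ranged from 9.37% to 23.4% with a median of 19.8% and none was under 5%, whereas the other 39 ranged from 0.156% to 62.4% with a median of 5.97%. Of their CpGs, 35.5% were between 20% and 80% in sperm, against 21.1% in the other clusters. They were also richer in CpGs, with a median of 67.0 per kb against 33.2, and no test was made since the clusters were picked by their spacing. The sperm levels depended on the limit of 10 pairs. With at least 5 pairs, the 9 distal clusters ranged from 0.156% to 23.4% in sperm, so clusters with almost unmethylated sperm qualified as well.

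The 2 bulls had close means in most clusters. The mean of a cluster differed by under 2 points between the 2 sperm libraries in 33 of the 44 clusters, by 5 to 10 points in 3 and by more than 10 in 2, with a median difference of 0.927 points. Clusters were drawn from CpGs called low on the summed counts of both bulls, and 19 had a sperm mean under 5%. Both limit how far the bulls can differ, so this closeness was in part set by the selection. A close mean can also hide differences along a cluster. In chr18:63687591-63692328, for example, the cluster means were within 2 points, but the bulls were at 61.3% and 26.2% in its last block. In the 86 clusters of the rest of the chromosome, 51 were within 2 points and 5 differed by more than 10, with a median of 1.65 points. The largest gap, in a cluster named here after its values were seen, was at chr18:65994091-65994632, where sperm replicate 1 was at 88.3% and replicate 2 at 36.5%, with 98.2% and 96.9% in monocytes and 93.7% and 93.0% in fibroblasts. Its 20 hypo-DMCs therefore rest on 1 bull. In chr18:62461053-62462017, also named after the fact, the bulls were at 25.4% and 5.56%.

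**Figure D5:**
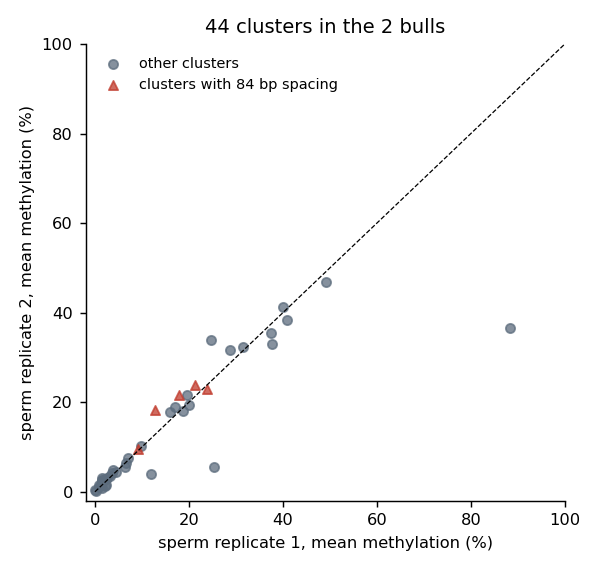
Mean methylation (%) of each of the 44 distal clusters in sperm replicate 1 (horizontal) and sperm replicate 2 (vertical), with the line of equality; triangles are the 5 clusters with an excess of CpG pairs 84 bp apart. All but 2 clusters lie within 10 points of the line, and the farthest is at 88.3% and 36.5%.

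Of the 58 distal CpGs that differed between the 2 sperm libraries, 8 lay inside clusters, which covered 21.1% of the distal CpGs, and 50 outside. Drawing clusters from CpGs that were low in the summed counts of both bulls also limits such calls inside them. The 58 CpGs fell in 32 runs, and replicate 1 was higher at 46 of them. The run with the most, from 63697293 to 63697741, had 10 such CpGs among 20, with 95.8% and 34.5% in the bulls, 72.7% and 71.6% in monocytes and 53.3% and 50.6% in fibroblasts. It lay about 5 kb beyond the cluster with the most hypo-DMCs, whose last block also differed between the bulls. With 1 library per bull, a difference between animals and one between libraries cannot be told apart.

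Monocytes were more methylated than fibroblasts in nearly all distal clusters, with a higher mean in 42 of 44 and in every library in 36, and the reverse in every library in 1. In the rest of the chromosome the mean was higher in monocytes in 75 of 86 clusters. This order was not particular to clusters. Outside them, monocytes and fibroblasts were at 39.8% and 33.0% in the distal region and at 52.2% and 45.5% in the rest. Over all CpGs inside the distal cluster borders the difference was 8.44 points, with both monocyte libraries above both fibroblast libraries (two-sided exact permutation, p = 0.333, again the minimum for 2 against 2). DMCs between the 2 somatic cell types are excluded from hypo-DMCs, so that their share inside the clusters, 310 CpGs or 11.0%, was limited by how clusters were drawn. The difference of 8.44 points was limited in the same way. Its p-value rests on values that the selection used, and the difference is a description.

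Relative to the rest of the chromosome, coverage in the clusters was higher in sperm than in somatic libraries. It is given as a description with no test, since the read counts also entered the limits on coverage and the calls that drew the clusters. The ratio of the median coverage of CpGs in the distal clusters to that of the rest of the chromosome was 1.06 and 1.11 for the sperm libraries. Monocytes had ratios of 0.889 and 0.933, and fibroblasts of 0.857 and 0.880. Both sperm libraries were above all 4 somatic ones, by 0.197 on average (1.09 ± 0.0344, SD, n = 2, against 0.890 ± 0.0319, n = 4). With no limit on coverage and all listed CpGs, the ratios were 1.44 and 1.5 in sperm and 1.09 to 1.15 in the somatic libraries. The part of coverage in the methylation values was not tested.

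Sperm-specific hyper-DMCs of the distal region formed 64 runs, none as large as the main clusters. The run with the most, chr18:62557371-62559035, had 21 hyper-DMCs among 22 CpGs, with sperm at 98.3% and 93.8%, monocytes at 8.998% and 10.4% and fibroblasts at 5.99% and 9.51%. It was the reverse of the main clusters in all libraries. The next, chr18:64324812-64325121, had 16 among 20 CpGs and lay 16 kb beyond the second cluster of intermediate somatic methylation. Sperm was at 98.8% and 98.6%, monocytes at 68.5% and 61.8% and fibroblasts at 40.1% and 50.2%. The one after it, chr18:62658232-62658621, had 15 among 15 CpGs and was almost unmethylated in somatic cells, with 0% in both monocyte libraries and 1.19% and 0.238% in fibroblasts, but its sperm libraries were at 94.4% and 34.5%. The sperm libraries of this run thus differed by more than in any of the clusters.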

How the data were processed

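The authors size-selected MspI fragments (40 to 290 bp) for RRBS, read them from both ends over 75 bp, and processed the reads with FastQC, Trim Galore 0.3.7, Bismark 0.14.3 with Bowtie and methylKit on build UMD3.1, per the submitters' processing notes. The deposited tables give, for each CpG and library, the coverage as a read count and the percent of reads that were methylated, with both strands joined at 1 position. Methylated reads were recovered as coverage times percent, which gave whole numbers within 0.1 points. CpGs were kept with 5 to 500 reads in all 6 libraries. Coverage summed over all listed CpGs was 45884839 to 78890776 per library, in which a read over several CpGs counts more than once. The median was 9 to 14 reads per CpG, which limits the precision of any 1 CpG. PCR duplicates could not be told from separate molecules.

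DMCs were called as described in the report, with Benjamini-Hochberg adjustment over 1580644 CpGs (Python 3.11.15, scipy 1.17.1). The test of summed counts does not take account of the spread between animals. edgeR 4.0.16 does, and Fisher's exact test, a test with the replicate number as a block, other coverage limits, difference sizes, gaps and borders, and leaving out each library were alternatives. The calling code was tested on simulated data. Replicates are different animals, and same-numbered libraries of different cell types come from different animals. A correlation of their deviations between -0.0328 and 0.00421 gave no sign of pairing. Regions named are the 2 clusters that defined the region, the others among the 10 with the most hypo-DMCs, the 3 runs with the most hyper-DMCs and, inside clusters, CpGs with extreme sperm values. Others are said to be chosen after their values were seen, as was the run with the most CpGs that differed between the bulls. The members and lists were chosen with earlier results of these data known. No sequence of build UMD3.1 was used here, so none is shown.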

Additional observations from a re-analysis of the deposited data

Results flagged for a closer look

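Inside the borders of the 44 distal clusters, 2414 listed positions were not among the CpGs 5-500. At least 1 library had fewer than 5 reads or none there, and these positions entered no comparison of methylation above. Each library had reads at only 1297 to 1373 of these positions, so the values below rest on different positions in each library. Their reads showed the same order as the clusters. Of these reads, 11.0% were methylated in sperm replicate 1 (Wilson 95% interval 10.3% to 11.6%, 8546 reads) and 10.9% in sperm replicate 2 (10.3% to 11.6%, 9003 reads). In monocytes, 90.4% (89.7% to 91.0%, 7675 reads) and 89.8% (89.0% to 90.5%, 6800 reads) were methylated, and in fibroblasts 79.3% (78.5% to 80.1%, 9924 reads) and 78.4% (77.6% to 79.1%, 11503 reads). The read counts are coverage summed over positions, so that a read over several positions counts more than once. The intervals treat these counts as independent and leave out the spread between animals, so they are too narrow. These positions lie between the CpGs that drew the clusters and often on the same fragments, so they are not independent of them.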

How the results depend on the processing

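The number of distal hypo-DMCs was 3148, and 3121 with Fisher's exact test, 2332 with edgeR, 2779 with a difference of at least 50 points, 3317 and 3047 with the border at 58 and 62 Mb, and 2820 to 3246 when each library was left out. It was 1945 with at least 10 reads in all libraries, of 8284 CpGs left, and the distal share was then 23.5% against 9.17% in the rest of the chromosome, and 17.4% against 6.03% with edgeR. The number of clusters ranged from 30 to 45 over the tests, differences, coverage minimum, gaps and left-out libraries tried. It was not counted for other borders or a maximum of 100 reads. With at least 10 reads, distal DMCs against sperm numbered 2975 for monocytes and 3149 for fibroblasts, and those between the somatic cell types 1328. With edgeR the number was 3164 for fibroblasts against sperm and 409 for the somatic pair, and a difference of at least 50 points left 939 of the latter, which ranged from 1334 to 2107 over the libraries left out. The distal drop of sperm relative to somatic cells was -17.4 points with at least 10 reads, -15.9 weighted by coverage and -17.6 over 10 kb bins, against -18.3. The drop of monocytes relative to fibroblasts, 0.2996 points, turned to -0.0671 weighted by coverage and -0.0512 with the border at 62 Mb. The share of pairs near multiples of 84 bp was 4.26% with a tolerance of 1 bp, a narrower window by construction. The causes of these shifts were not tested, other than fewer CpGs at a higher coverage minimum.

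The replicate numbers do not pair animals. With the replicate number as a block (Cochran-Mantel-Haenszel test), distal DMCs against sperm numbered 4587 for monocytes and 4928 for fibroblasts, those between the somatic cell types 1875, with 3137 hypo-DMCs and 44 clusters.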
